A study of Mus musculus with 4 samples.

Results

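The genes described here are 6 genes of macrophages and of the erythroblastic island (EBI) in the mouse fetal liver, namely Lyz2, Ccl6, Marco, Cd163, Vcam1 and Adgre1. They were read by 10 of the 45101 probe sets of an Affymetrix mouse array, a probe set being the group of short probes that together give 1 value for a transcript. Lyz2, Marco, Cd163 and Ccl6 (5 probe sets) were selected on measured values, since they were taken from a table in which the authors kept only probe sets with a 2-fold difference between genotypes. Vcam1 (4 probe sets) and Adgre1 (1 probe set) were taken by name and probe set ID. The pairing of these 5 IDs with their genes was given with the selection and is in neither of the deposited files, whereas the other names come from the authors' table, which names 1345 genes. Total RNA was extracted from E14.5 fetal livers of Stk40 wild-type (WT) and Stk40 knockout (KO) embryos. The KO is a conventional one, carried by every cell of the embryo, and both genotypes came from matings of Stk40 heterozygous mice on a C57BL/6J background. Each of the 4 arrays, 2 per genotype, received RNA pooled from 6 livers of 1 genotype, so that the spread between replicates is a spread between pools.

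Erythroblasts of the fetal liver mature while attached to a central macrophage, and this cluster is the EBI. The macrophage holds the erythroblasts by adhesion molecules, among them vascular cell adhesion molecule-1 (Vcam1), which binds α4β1 integrin on the erythroblast, and it engulfs the nuclei that erythroblasts expel. Adgre1 encodes F4/80, the surface protein by which mouse macrophages are usually stained. Cd163 is the macrophage receptor that takes up complexes of hemoglobin and haptoglobin, and in human it has also been described as a receptor for erythroblasts. Marco is a class A scavenger receptor of macrophages that binds bacteria and particles. Lyz2 encodes lysozyme M, an enzyme that cleaves bacterial cell walls and is made by macrophages, monocytes and neutrophils alike. Ccl6 is a CC chemokine of rodent myeloid cells.

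Values are linear intensities without a physical unit or any scaling between arrays, and many of them are negative. The noise level was therefore taken from the negative values, of which 95% were smaller in size than an intensity of 143. The arrays differed in overall brightness, with median intensities of 29.9 and 33.9 for WT against 37.5 and 39.3 for KO, and the share of probe sets above the noise level ran from 24.1% to 28.5%. Spiked hybridization controls were brighter on the KO arrays by 0.23 on the log2 scale. Each value below is thus given as deposited and also after scaling, which gave the positive values of every array an equal 75th percentile. The median log2 fold change of all tested probe sets was 0.18 as deposited and -0.04 after that scaling. The named probe set of Stk40 read 59.9 and 52.2 in WT against -98.9 and -111 in KO, all under the noise level. None of 20 erythroid marker symbols, synonyms included, and none of 14 hepatoblast ones is named in the authors' table. The labelled tissue could thus not be checked against them.

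Promoter sequences are shown for 3 of the genes that were higher in KO, because these genes were taken for their common direction. RefSeq (GRCm38.p6) gave a promoter for 4 of the 6 genes, and the 250 bases before the gene start are used here. They were searched on both strands for GAGGAA (the core bound by PU.1, the transcription factor of the myeloid lineage), TTGCNNAA (C/EBP), TGANTCA (AP-1) and, for NF-κB, GGGA followed after any 4 bases by CC. Capitals mark matches to the PU.1 or NF-κB letters, which do not overlap each other in these windows. Lyz2 lies on the minus strand at chr10:117282273-117282522, Marco on the minus strand at chr1:120505025-120505274 and Cd163 on the plus strand at chr6:124304401-124304650.
Lyz2: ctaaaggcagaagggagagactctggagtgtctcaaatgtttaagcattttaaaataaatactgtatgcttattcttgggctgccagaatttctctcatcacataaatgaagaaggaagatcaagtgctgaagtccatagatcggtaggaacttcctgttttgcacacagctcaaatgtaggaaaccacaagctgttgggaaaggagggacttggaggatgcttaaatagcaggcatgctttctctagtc
Marco: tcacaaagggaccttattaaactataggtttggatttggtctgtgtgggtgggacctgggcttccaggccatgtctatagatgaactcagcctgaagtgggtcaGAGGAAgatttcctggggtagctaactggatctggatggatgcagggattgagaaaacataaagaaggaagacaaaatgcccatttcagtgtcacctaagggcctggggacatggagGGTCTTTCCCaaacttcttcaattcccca
Cd163: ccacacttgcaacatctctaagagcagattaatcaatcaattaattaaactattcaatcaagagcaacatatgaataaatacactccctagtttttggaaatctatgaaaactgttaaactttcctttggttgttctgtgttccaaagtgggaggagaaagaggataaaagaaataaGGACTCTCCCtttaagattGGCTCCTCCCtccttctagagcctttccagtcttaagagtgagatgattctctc
The window of Lyz2 held none of the 4 motifs, and neither did that of Ccl6. Marco had 1 PU.1 match, 146 bases before the start, and 1 NF-κB match on the opposite strand, whereas Cd163 had 2 NF-κB matches and no other. Among all 32851 promoters of the same length, 23.3% held the PU.1 letters, 17.6% the NF-κB letters, 9.56% the C/EBP letters and 6.75% the AP-1 letters. These matches describe letters in a short window and were not tested against the arrays.

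**Figure D1:**
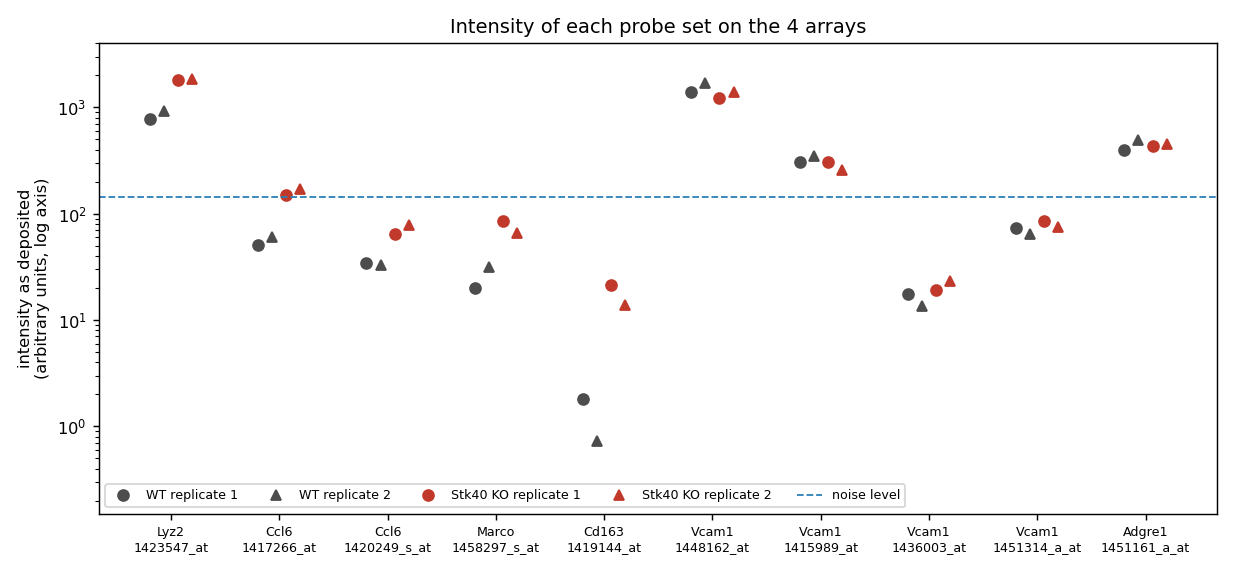
Intensity as deposited (arbitrary units, log axis) of each of the 10 probe sets on the 4 arrays, with circles for replicate 1 and triangles for replicate 2, WT in grey and Stk40 KO in red, and the noise level of 143 as a dashed line. Lyz2, both bright Vcam1 probe sets and Adgre1 lie above the noise level on all arrays, and Lyz2 is the only one of these with both KO arrays above both WT arrays.

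Lyz2 was the only gene taken for its 2-fold change that was above the noise level on every array. It had an intensity of 781 and 930 in WT, against 1818 and 1854 in KO. Both KO arrays lay far above both WT arrays, and the replicates of a genotype stood much closer to each other than to the other genotype. The mean was 855 ± 106 (SD, n = 2 arrays) in WT and 1836 ± 25.7 in KO, a 2.15-fold difference. With equal 75th percentiles the arrays read 932 and 926 in WT and 1675 and 1729 in KO, which is 1.83-fold, so that the gene fell under the 2-fold threshold by which it had been taken. No test is given for it, since these same values chose it. The rule of the methods was a 2-fold ratio of mean intensities with no test. As read here, it takes 3.79% of all probe sets it can be applied to as up in KO. Of those that exceeded the noise level on each of the 4 arrays, it takes only 0.251% (27 probe sets). By mean intensity Lyz2 ranked at place 3 among the 1247 probe sets so taken. A probe set that the table assigns to both Lyz1 and Lyz2, and which therefore was not counted as Lyz2, had 122 and 121 in WT and 271 and 279 in KO, a 2.26-fold ratio as deposited and 1.91-fold with equal 75th percentiles. Lyz1 is a close paralog of Lyz2, and the files do not tell how far either probe set reads both.

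Ccl6 was read by 2 probe sets. The brighter one had 50.3 and 60.0 in WT against 149 and 169 in KO, so that only the KO arrays lay above the noise level. Since both WT values are within the noise, no fold is claimed, and the ratio of measured means was 2.88 as deposited. The KO mean was 1.12 times the noise level as deposited and 1.03 times after scaling, which sets no lower bound on the difference. With equal 75th percentiles the KO arrays read 137 and 158, with 1 of them above the noise level of 144 on that scale, and the ratio of measured means was 2.46. The dimmer probe set had 34.0 and 33.2 in WT and 64.1 and 78.2 in KO, all under the noise level. The suffix of its ID (_s_at) marks probes that are shared by several transcripts. By RT-qPCR, a separate measure, the authors also report Ccl6 as upregulated in KO.

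Marco and Cd163 were dim on every array. Marco had intensities of 19.9 and 31.6 in WT and of 85.5 and 66.1 in KO, by a probe set whose ID also has the suffix _s_at. Cd163 had 1.82 and 0.727 in WT and 21.5 and 13.7 in KO. For both genes the KO arrays were the higher ones, but all values lay under the noise level, so that no fold is claimed for them. The ratios of measured means were 2.94 for Marco and 13.9 for Cd163 as deposited, which scaling to equal 75th percentiles brought to 2.54 and 11.3. The ratio of Cd163 rests on WT values near 0, and it was 24.3 without WT replicate 1 and 9.70 without WT replicate 2. Among probe sets under the noise level on all 4 arrays, 5.83% met the 2-fold rule in the upward direction, more than among bright ones. At the threshold of the rule, the member just inside was the dimmer probe set of Ccl6 at a ratio of 2.12, and the highest outside it was the dimmest probe set of Vcam1 at 1.36.

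**Figure D2:**
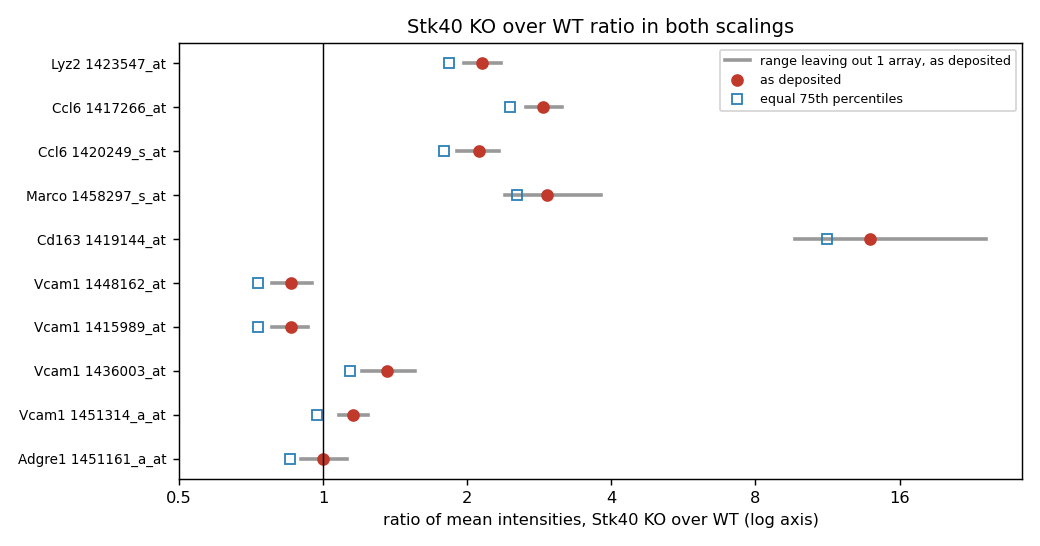
Ratio of mean intensities, Stk40 KO over WT (log axis), for each probe set as deposited (red circles) and with equal 75th percentiles (blue squares), with grey bars for the range as deposited when 1 array is left out. Lyz2, Ccl6, Marco and Cd163 lie to the right of 1 because they were taken for a 2-fold rise, and the scaling moves every ratio to the left, Adgre1 from 0.999 to 0.855.

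Vcam1, the EBI adhesion molecule, was read by 2 bright and 2 dim probe sets. By the brightest it had an intensity of 1388 and 1682 in WT, against 1227 and 1402 in KO. As deposited the genotypes overlapped, since KO replicate 2 lay above WT replicate 1. With equal 75th percentiles the same probe set read 1656 and 1675 in WT and 1131 and 1307 in KO, and the genotypes no longer overlapped. Both KO arrays lay below both WT arrays in 32.4% of the tested probe sets on this scale, against 1.4% of them as deposited. The second bright probe set had 304 and 349 in WT against 304 and 256 in KO as deposited, and after scaling 363 and 347 against 281 and 238. Thus the means differed by the same size, with a KO over WT ratio of 0.857 by each as deposited and of 0.732 and 0.730 after scaling. Yet the KO arrays were ordered in opposite ways, with replicate 1 lower by the brightest probe set and replicate 2 lower by the second. The brightest over the second was 4.56 and 4.82 in WT and 4.03 and 5.49 in KO.

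Differences of Vcam1 and Adgre1 were tested with limma on log2 intensities at equal 75th percentiles, values under the noise level having been raised to it, over the 12319 probe sets above that level on at least 2 arrays. The brightest Vcam1 probe set fell in KO by 0.45 on the log2 scale (standard error 0.08, 95% interval -0.64 to -0.27, limma adjusted p = 0.0335). The second had the same log2 fold change within 0.01, -0.46 (standard error 0.11, 95% interval -0.71 to -0.20), and missed the threshold of 0.05 (limma adjusted p = 0.0858). Of all tested probe sets, 0.666% were called lower in KO and 1.19% higher, and 0.739% had a log2 fold change below that of the brightest Vcam1 probe set. The call depends on the scaling. On the intensities as deposited limma gave -0.22 (95% interval -0.60 to 0.16, adjusted p = 0.673) for the brightest probe set and called 0.0873% of the probe sets lower. With the arrays scaled to the spiked controls, an alternative chosen after the data had been seen, it gave -0.45 (adjusted p = 0.0232), and after quantile normalization -0.40 (adjusted p = 0.0738). With 1 array left out, the spread comes from the other genotype's pair and limma's prior, as the lone array is assumed to vary likewise. In such fits the second probe set was called without WT replicate 2 (adjusted p = 0.0169) or without KO replicate 1 (adjusted p = 0.0285), but not without WT replicate 1 (adjusted p = 0.0950) or without KO replicate 2 (adjusted p = 0.218). An exact permutation test of 2 arrays against 2 cannot go below p = 0.333, so no single value was tested that way. The authors report that the deletion left the mRNA level of Vcam1 unaffected, by RT-qPCR and by their own analysis of the arrays. Their array analysis took a 2-fold change with no test as its threshold, which the Vcam1 ratios here do not reach. Their RT-qPCR is another measure, with more samples per genotype than the 2 arrays used here. Neither is thus a like comparison with the limma result.

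The other 2 probe sets of Vcam1 were under the noise level on all arrays and could not be tested. One had 74.0 and 64.4 in WT and 85.0 and 74.8 in KO, and the other, the dimmest, had 17.5 and 13.6 in WT and 19.2 and 23.2 in KO. As deposited both KO arrays were higher by each of them, on arrays that were brighter overall. The share of all probe sets that were higher in this way was not counted. With equal 75th percentiles the genotypes overlapped, at ratios of 0.972 and 1.14. At this level they carry no measurement of Vcam1.

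Adgre1 had intensities of 393 and 490 in WT, against 430 and 453 in KO. Both KO values lay between the WT values, and the means were 442 ± 68.7 (SD, n = 2 arrays) and 442 ± 16.9. With equal 75th percentiles the values became 469 and 488 in WT and 396 and 423 in KO, a ratio of 0.855 with no overlap. In limma this was a log2 fold change of -0.23 (standard error 0.09, 95% interval -0.43 to -0.02), which did not pass (adjusted p = 0.238), and as deposited the value was 0.01 (95% interval -0.49 to 0.50, adjusted p = 0.986). As for Vcam1, such a lack of overlap was common on this scale, at 32.4% of the tested probe sets. In RNA of whole livers, fewer macrophages and less of a transcript in each macrophage cannot be told apart.

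**Figure D3:**
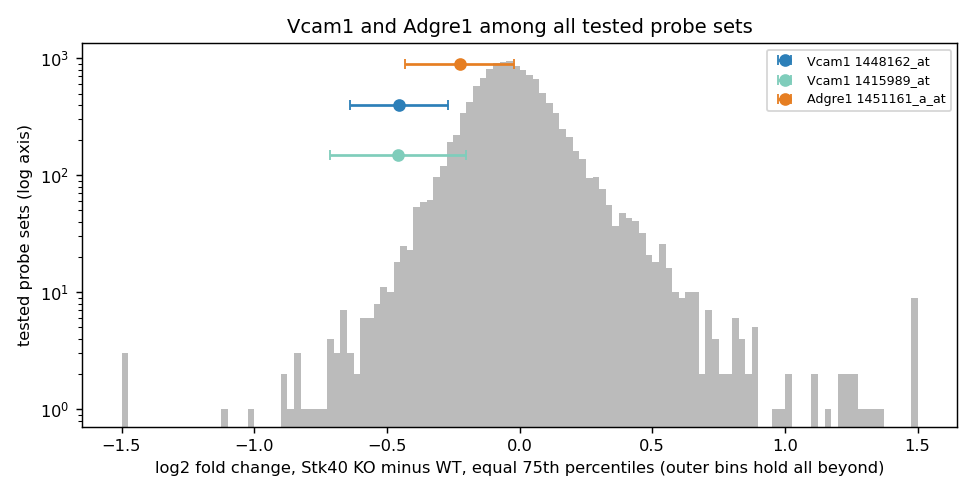
Histogram of the log2 fold change, Stk40 KO minus WT at equal 75th percentiles, of the 12319 tested probe sets (log count axis, outer bins holding all values beyond 1.5), with points and 95% intervals for both bright Vcam1 probe sets and Adgre1 at heights that carry no value. Both Vcam1 points, at -0.45 and -0.46, lie in the lower tail and Adgre1, at -0.23, nearer to the bulk.

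Ratios between probe sets on the same array do not depend on the scaling between arrays, and only their change between genotypes carries meaning, because probe sets differ in brightness for the same amount of RNA. The ratio of Lyz2 to Adgre1 was 1.99 and 1.90 in WT against 4.23 and 4.09 in KO. It was thus 2.14-fold higher in KO, which restates the rise by which Lyz2 had been taken. The ratio of the brightest Vcam1 probe set to Adgre1 was 3.53 and 3.43 in WT and 2.86 and 3.09 in KO. By the second Vcam1 probe set it was 0.774 and 0.712 in WT and 0.709 and 0.564 in KO. Both ratios were lower in KO on every array, by 0.23 on the log2 scale each. For the second, the nearest WT and KO arrays differed by little, at 0.712 and 0.709. These ratios share Adgre1 and read the same gene, so they are not independent of each other. How many other probe sets lie lower against Adgre1 in this way was not counted.

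**Figure D4:**
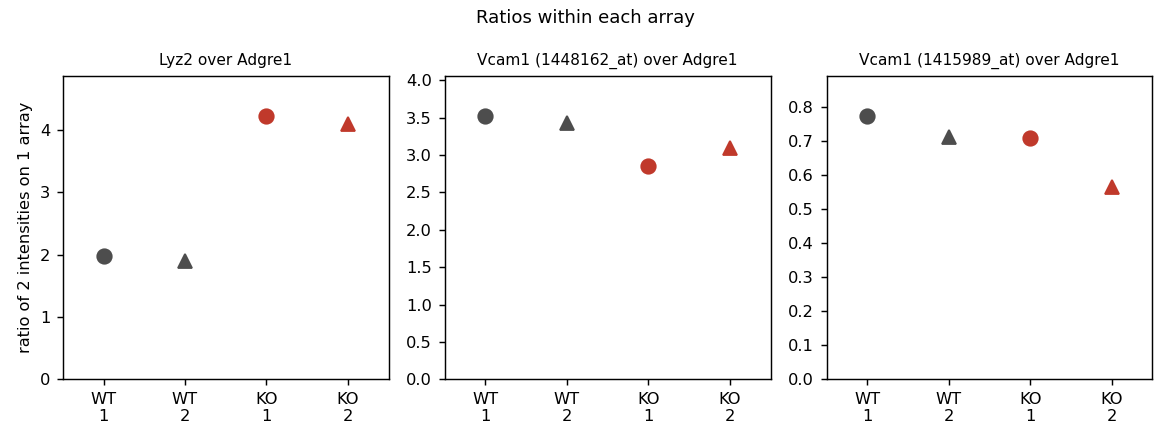
Ratio of 2 intensities on the same array, for Lyz2 over Adgre1 and for each bright Vcam1 probe set over Adgre1, on the WT arrays (grey) and the Stk40 KO arrays (red), with circles for replicate 1 and triangles for replicate 2. Lyz2 over Adgre1 is near 2 for WT, against 4.09 and 4.23 for KO. Both Vcam1 ratios are lower on the KO arrays, for the second by little (nearest arrays 0.712 in WT and 0.709 in KO). The share of probe sets that lie lower in this way was not counted.

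Further genes of macrophages and of the EBI could be looked up only if the authors' table names them, so a gene found there had already changed 2-fold and its direction is no result about its list. Of 26 macrophage markers only Msr1, a scavenger receptor related to Marco, is named. Msr1 had 63.2 and 87.3 in WT and 162 and 208 in KO, above the noise level only in KO, and it was not called by limma with equal 75th percentiles. Of 16 symbols of EBI adhesion and receptor genes, synonyms included, Siglec1 is named beside Cd163. Siglec1, a sialic acid-binding adhesion receptor of macrophages, had 3.64 and 1.82 in WT and 2.73 and 11.5 in KO, which overlap. Of 22 genes of EBI macrophage function only Palld, an actin-associated protein needed for erythropoiesis in mouse fetal liver, is named, and its KO values, 0.182 and 31.8, lie on either side of both WT values. Among 16 lysozymes and scavenger receptors Scara3 is named beside Lyz2, Marco, Cd163 and Msr1, and among 20 CC chemokines and receptors Ccl20 beside Ccl6, both of them under the noise level on all arrays. None of 12 monocyte markers is named. Over these lists limma tested Lyz2 and Msr1 only.

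Genes of other cells are likewise named only where they passed the 2-fold rule, so that the direction of their sums follows from it. Of 17 symbols of neutrophil granule genes, synonyms included, 7 are named, none of them at 0. Their summed intensity was 1810 and 1888 in WT against 4359 and 6127 in KO, a ratio of 2.84 as deposited that scaling brought to 2.41. Ngp, a neutrophil granule protein and the brightest of them, had 731 and 696 in WT and 1547 and 2300 in KO. Limma tested 4 of the 7 (Camp, Lcn2, Ltf and Ngp) and called all of them up, against 1.19% of all tested probe sets. They were named for a 2-fold change on these same arrays, so these calls are no test of them. Neutrophils make lysozyme M as well, and their part in the Lyz2 signal was not tested. Vcam1 is also made by endothelial and stromal cells. Of 16 markers of these cells 4 are named (Col1a1, Des, Emcn and Ncam1), with a summed intensity of 313 and 337 in WT and of 632 and 761 in KO, most of it from Col1a1, a collagen gene, since Des, Emcn and Ncam1 were under the noise level on all arrays. The direction of this sum also follows from how the genes were named. Their part in the Vcam1 signal was not tested.

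Among the 30 other named probe sets that exceeded the noise level on every array after scaling, the pattern nearest to Lyz2 over the 4 arrays was that of Scd1, the stearoyl-CoA desaturase of fat synthesis, by the Euclidean distance of centred log2 intensities (0.04). Ptn, a secreted growth factor, followed at 0.05 and Ptgfrn at 0.08, then a second probe set of Scd1 at 0.09 and its relative Scd2 at 0.18. All of these had KO over WT ratios of 2.03 to 2.16 as deposited, like Lyz2, since they were picked for their nearness to it. Every probe set with a name had also passed the 2-fold rule. The probe set nearest to the brightest one of Vcam1 was that of Ddx6, an RNA helicase, at a distance of 1.07, a distance that follows from the 2-fold change of every probe set compared.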

How the data were processed

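The authors hybridized RNA of 2 WT and 2 Stk40 KO pools, of 6 E14.5 livers each, to Affymetrix mouse arrays. The deposited value table gives, per array, a linear intensity of each of the 45101 probe sets, made with MAS5 according to the submitters' processing notes, which name no version. A second deposited table lists 1467 probe sets past a 2-fold change and was used only for its gene symbols (1418 with 1 symbol), and its intensities equal those of the value table with values under 0.1 raised to 0.1. Its means and folds were not used. Control probe sets (64) were left out except in the 2-fold rule of the methods. As read here, that rule removes probe sets negative on all arrays or of opposite sign within a genotype. The methods speak only of inconsistent values within a group, and also drop genes found in both directions. So read, the rule takes 1247 probe sets as up and 516 as down, so it does not return exactly the 1467 listed by the authors.

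Here each array was scaled to the mean 75th percentile of the positive values, values under the noise level were raised to it, and log2 intensities were tested across all probe sets that exceeded it on 2 or more arrays with limma 3.58.1 (lmFit, eBayes with a trend, Benjamini-Hochberg adjustment, threshold 0.05) in R 4.3.3. Limma's prior degrees of freedom were 6.25, and infinite on the intensities as deposited. Groups and replicate numbers came from the labels. The labels call the pools biological replicates, and 2 arrays per genotype limit the precision. The fit was tested on simulated data. The genes named are the members, the genes of 10 lists that the table names, and the 5 named probe sets nearest in pattern to Lyz2 and to Vcam1. The members and lists were chosen with earlier results of these data known. Alternatives covered scaling, floor, filter, prior variance, replicate block and each array left out. No flagging test applies to groups of 2.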

Additional observations from a re-analysis of the deposited data

How the results depend on the processing

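Only 4 of the 10 probe sets exceed the noise level on every array, and 2 arrays per genotype estimate the spread. Limma called 147 probe sets up and 82 down. It called 284 and 11 as deposited, 67 and 18 after quantile normalization, 238 and 163 with the floor at the median size of the negative values, and 153 and 47 with spiked controls. The number down was 200 with only probe sets that exceed the noise level on all 4 arrays and 53 without a trend. Leaving out 1 array gave 103 to 462 up and 121 to 312 down. With the replicate number as a block 597 were up and 750 down, and the second Vcam1 probe set passed at -0.46 (adjusted p = 0.00934). The replicates share only a number, and the deviations of same-numbered arrays had a correlation of 0.24 across probe sets. A fit with no filter on low values could not be made.

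The brightest Vcam1 probe set was lower in KO under all 11 alternatives and called under 8. These include 4 fits with 1 array left out, in which an arm has 1 array that is assumed to vary like the others. It lost the call as deposited (-0.22), after quantile normalization (-0.40) and without a trend (-0.45, adjusted p = 0.0776), with adjusted p from 0.00145 to 0.673. The second was lower under all 11 (-0.58 to -0.34 with 1 array left out) and called under 5, including, at -0.46, the lower floor (adjusted p = 0.0453) and the filter on all 4 arrays (adjusted p = 0.0370). Adgre1 was called under none of the 11 (adjusted p from 0.0739 to 0.986), and its value was near 0 as deposited (0.0074). Called neutrophil genes went from 4 to 1 and called endothelial and stromal genes from 1 to 0 after quantile normalization. With the lower floor, called macrophage markers went from 0 to 1. All these genes were named for a 2-fold change, so their calls are no test of them.

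The Lyz2 ratio of 2.15 became 1.83 with equal 75th percentiles and 1.84 with spiked controls. For Ccl6 the brighter probe set went to 2.43 after quantile normalization, and the dimmer one to 1.79 with equal 75th percentiles, 1.75 after quantile normalization and 1.79 with spiked controls. The Cd163 ratio ranged from 9.70 to 24.3 with 1 array left out. The brighter of the 2 dim Vcam1 probe sets went from 1.16 to 0.972 with equal 75th percentiles, 0.951 after quantile normalization and 0.978 with spiked controls. The 2-fold rule took 1247 probe sets as up, 817 with equal 75th percentiles, and 40 up and 8 down with the floor at the noise level.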
